A study of Mus musculus with 2 samples.

Results

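Serum response factor and the cofactors that direct it were measured in mouse megakaryocytes as a group of 6 genes: Srf itself, the myocardin-related coactivators Mkl1 and Mkl2 (now also named Mrtfa and Mrtfb), and the ternary complex factors Elk1, Elk3 and Elk4. They were chosen by name, and all 6 were found among the 43346 Ensembl genes of the deposited gene tables. Polyadenylated RNA was sequenced in 2 libraries from 1 group of megakaryocytes, the blood cells that release platelets; these were primary cells of embryonic day 14.5 mice, with both sexes pooled. The labels name no treatment, genotype change or other group. They give the libraries the same biosample and the same donor, so the spread between them may be technical. Replicate 1 held 42099216 estimated fragments in Ensembl genes and replicate 2 held 2275922, which is 18.5-fold fewer.

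SRF is a transcription factor of the MADS box family that binds CArG boxes, A/T-rich elements framed by CC and GG. The MKL proteins are held in the cytoplasm by monomeric actin and reach SRF in the nucleus when actin is taken up into filaments, whereas the ternary complex factors are ETS domain proteins that bind DNA beside SRF and are phosphorylated by ERK at the end of the Ras pathway. The MKL branch is best known for cytoskeletal genes and the ternary complex factor branch for immediate early genes. In megakaryocytes, loss of Srf or of Mkl1 in mice is known to disturb maturation and lower platelet number, and the human MKL1 gene is fused to RBM15 in an infant megakaryoblastic leukaemia.

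The promoter of Srf is shown first because it was the only promoter of the 6 genes with CArG boxes. The 200 bases that end 51 bases before the RefSeq start of transcription (GRCm38.p6, chr17:46556213-46556412, minus strand) read as follows, with a CCGGAA motif and both CArG boxes in capitals.
Srf: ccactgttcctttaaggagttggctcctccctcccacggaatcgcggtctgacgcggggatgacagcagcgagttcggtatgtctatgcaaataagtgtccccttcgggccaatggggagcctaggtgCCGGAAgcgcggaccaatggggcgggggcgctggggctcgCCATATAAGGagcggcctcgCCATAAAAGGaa
The CArG boxes began 82 and 62 bases before the start, and the CCGGAA motif, a core sequence bound by ETS domain proteins, began 40 bases upstream of the nearer of them. The search covered both strands of windows from 250 bases before to 50 bases after each RefSeq start, and the motifs did not overlap. All 6 genes matched the promoter table, with 11 windows among them. A CArG box was present in 1 of these 11 windows against 1.63% of all 32851 windows in the table. CCGGAA was present in 4 of the 11 against 14.9% of all windows: besides Srf, in 1 window of Elk4 and in overlapping windows of Mkl2 that share 1 motif. The sequences around the motifs of these genes are given for comparison with that of Srf, with the motif in capitals (Mkl2 holds it on the opposite strand).
Srf, chr17:46556269-46556294, minus strand: agcctaggtgCCGGAAgcgcggacca
Mkl2, chr16:13256335-13256360, plus strand: gttttaacttTTCCGGgtcaggggcg
Elk4, chr1:132007542-132007567, plus strand: ggcccctcccCCGGAAgtgacgctcg
These matches describe letters in a window and were not tested for binding.

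Mkl1 and Srf were the most abundant of the group, in the order Mkl1, Srf, Elk1, Elk3, Elk4 and Mkl2 in both libraries. Levels are given as TPM (transcript copies scaled to a fixed total in each library), which is per length and can be compared between genes. A mean of at least 1 TPM was reached by 5 of the 6 genes, all but Mkl2, against 22.7% of all 43346 genes and 42.5% of the 21474 protein-coding genes. By the authors' posterior mean TPM, in place of the maximum likelihood TPM used throughout, all 6 reached it: the mean of Mkl2 was 1.18 TPM, and Elk4 at 5.98 TPM stood level with Elk3 at 5.92 TPM. In replicate 2, however, the posterior means of Mkl2 (1.78 TPM) and Elk4 (9.33 TPM) lay mostly in short transcripts. These transcripts, of at most 667 bases, were given 0 fragments. The difference between the means of Mkl1 and Srf was smaller than the SD of Mkl1, and the lowest Mkl1 value (133 TPM) lay just above the highest Srf value (131 TPM). Elk3 and Elk4 were likewise not apart beyond the spread of Elk3, with a lowest Elk3 value of 2.38 TPM and a highest Elk4 value of 2.16 TPM. The other neighbours in the order differed by more than the larger SD of each pair. Every gene in the group gave reads in both libraries, but in replicate 2 the values of Elk3, Elk4 and Mkl2 rest on 9, 13 and 2 fragments.

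**Figure D1:**
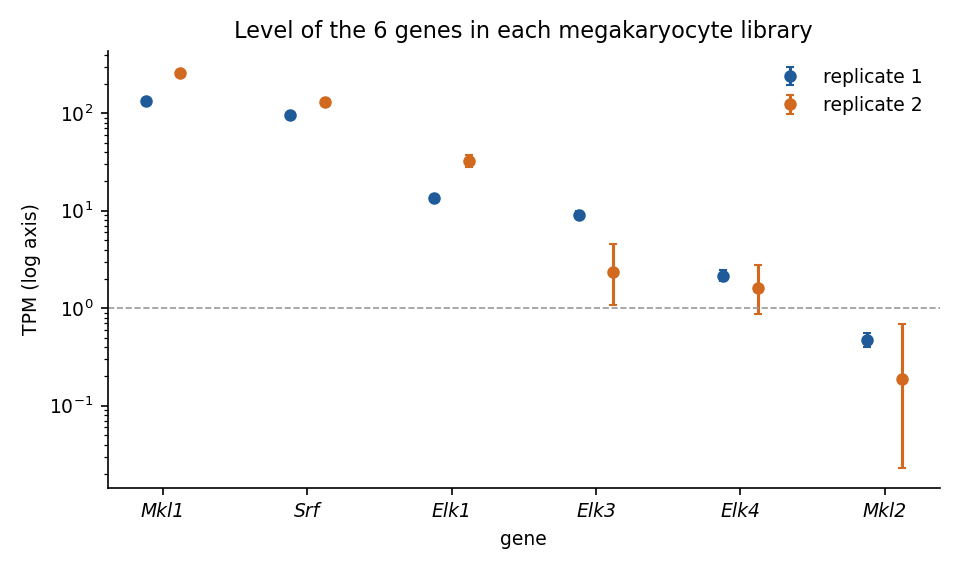
Level of each of the 6 genes in replicate 1 (blue) and replicate 2 (orange) in TPM on a log axis, with bars for the exact 95% counting interval and a dashed line at 1 TPM. Mkl1 and Srf lie above 90 TPM in both libraries, and Mkl2 lies below 1 TPM in both.

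Srf, which encodes the DNA-binding factor common to all the complexes, lies at chr17:46548329-46556175 on the minus strand (mm10, the build also named GRCm38). It stood at 94.9 and 131 TPM in replicates 1 and 2, from 14729 and 962 fragments, a mean of 113 ± 25.7 TPM (SD, n = 2). These levels lay above 86.3% and 89.8% of the genes with a mean of at least 1 TPM over both libraries, compared within each library. All of the Srf level was assigned to its only annotated transcript, Srf-201, with 1512 coding bases. The protein-coding genes with the most similar pattern over the 2 libraries were Lrp10 (93.3 and 132 TPM) and Sin3b (93.5 and 129 TPM), at distances of 0.026 and 0.035 on the log2(TPM + 1) scale. Of the other MADS box factors, the Mef2 family, Mef2d was the highest at 58.8 and 151 TPM, below Srf in replicate 1 and above it in replicate 2, followed by Mef2c at 8.80 and 7.42 TPM and Mef2a at 3.35 and 0.60 TPM.

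Of the coactivators, Mkl1 made up 99.6% of the summed Mkl1 and Mkl2 level in replicate 1 and 99.9% in replicate 2. Myocardin (Myocd), the founding coactivator of heart and smooth muscle, was at 0 counts in both libraries. Zero counts allow up to 3 fragments, which is 0.0713 CPM (counts scaled to a fixed total in each library, not per length) in replicate 1 and 1.32 CPM in replicate 2. Mkl1 lies at chr15:81012281-81190757 on the minus strand and stood at 133 and 261 TPM in replicates 1 and 2, from 19694 and 1803 fragments (mean 197 ± 90.5 TPM, SD, n = 2). These levels lay above 89.7% and 94.1% of the genes with a mean of at least 1 TPM. The genes most similar to it were Ap2a1 (132 and 247 TPM, distance 0.081) and Tifa (141 and 259 TPM, distance 0.085). Mkl2, at chr16:13256481-13417529 on the plus strand, stood at 0.47 TPM from 150 fragments in replicate 1 and at 0.19 TPM from 2 fragments in replicate 2 (mean 0.33 ± 0.198 TPM, SD, n = 2). Its most similar genes, Tas1r2 and Dach1, were also at under 1 TPM in both libraries. Mkl2 was therefore given reads but lay at the bottom of the measured range. Its levels were above 3.15% and 7.88% of the genes with a mean of at least 1 TPM, a mean that it did not reach.

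Most of the Mkl1 level came from a start inside the gene. Transcript Mrtfa-201, with 2892 coding bases, starts 85674 bases downstream of the annotated gene start and took 81.8% of the Mkl1 level in replicate 1 and 88.2% in replicate 2. All transcripts that start further inside the gene reached a sum of 112 TPM in replicate 1 and of 241 TPM in the other library. The 5 annotated transcripts that start within 300 bases of the gene start summed to 21.5 and 20.6 TPM, or 16.2% and 7.88% of the gene. The upstream-start sum was thus nearly equal in the libraries, but in replicate 2 most of it was Mrtfa-202, a retained-intron transcript at 8.99 TPM in replicate 1 and at 13.5 TPM, from 17.6 fragments, in replicate 2. The internal-start level was 2.16-fold higher in replicate 2 as a ratio of TPM. Among the coding transcripts of the upstream start, 2 were given reads only in replicate 1 (Mrtfa-209 at 7.87 TPM and Mrtfa-203 at 4.66 TPM) and 1 only in replicate 2 (Mrtfa-204 at 7.05 TPM, from 55.6 fragments). The sequences before the RefSeq starts nearest to each are given because this choice of start is the main difference among Mkl1 transcripts (GRCm38.p6, minus strand, 200 bases ending 51 bases before the start, no motif marked).
Mkl1 upstream start, chr15:81190787-81190986: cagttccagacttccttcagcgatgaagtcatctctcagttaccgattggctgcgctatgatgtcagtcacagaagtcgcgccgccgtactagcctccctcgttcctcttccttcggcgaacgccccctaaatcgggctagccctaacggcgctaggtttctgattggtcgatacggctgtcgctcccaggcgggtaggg
Mkl1 internal start, chr15:81105098-81105297: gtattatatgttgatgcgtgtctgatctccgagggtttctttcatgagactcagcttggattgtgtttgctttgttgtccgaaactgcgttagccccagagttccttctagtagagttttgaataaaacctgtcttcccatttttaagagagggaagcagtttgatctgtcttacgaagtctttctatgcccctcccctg
The 300-base window at the upstream start had a GC content of 64.3% and that at the internal start 48.7%. Neither window held a CArG box or CCGGAA. The reads were polyA-selected, and start use was inferred by the authors' quantification rather than measured at the 5′ end.

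The ternary complex factors came to 24.7 and 36.3 TPM in all in replicates 1 and 2, and Elk1 was the highest in both libraries. Elk1, a transcriptional activator on ERK phosphorylation, lies at X:20933395-20950608 on the minus strand and stood at 13.4 and 32.3 TPM from 1798 and 204 fragments (mean 22.9 ± 13.3 TPM, SD, n = 2). It made up 54.4% of the ternary complex factor level in replicate 1 and 89.0% in replicate 2. Elk3, also called Net and known as a repressor in the absence of Ras signalling, lies at chr10:93247414-93311135 on the minus strand. Elk3 stood at 9.09 and 2.38 TPM from 521 and 9 fragments (mean 5.73 ± 4.74 TPM, SD, n = 2), which was 36.8% and 6.55% of the ternary complex factor level. Elk4, also called SAP-1, lies at chr1:132007607-132032612 on the plus strand and stood at 2.16 and 1.63 TPM from 235 and 13 fragments (mean 1.90 ± 0.375 TPM, SD, n = 2), or 8.75% and 4.49% of that level. Elk1 thus led in each library, and its larger share in replicate 2 stood beside a smaller share of Elk3. The genes most similar in pattern were Slc41a3 (13.2 and 33.7 TPM) and Rnf145 (13.7 and 34.2 TPM) for Elk1, Tnfrsf1b (9.51 and 2.35 TPM) and Flot2 (9.11 and 2.23 TPM) for Elk3, and Rmdn1 (2.20 and 1.63 TPM) and Pon3 (2.08 and 1.59 TPM) for Elk4.

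Little of the Elk3 level was assigned to a full-length coding transcript. Elk3-202, annotated as a target of nonsense-mediated decay, took 67.4% of the Elk3 level in replicate 1 and 79.4% in replicate 2. Elk3-203, which retains an intron, took 27.1% in replicate 1 and was at 0 in replicate 2. The coding transcript Elk3-201 took 5.49% and 20.6%, which is 0.50 and 0.49 TPM from 79.2 and 3.71 estimated fragments. Its estimated level was close in both libraries while that of the gene was not, but 3.71 fragments are too few to call it unchanged. The background was protein-coding genes with a mean of at least 1 TPM and a level above 0 in the library. Their median share in coding transcripts was 100% in each library. As Elk3 did in both, 20.3% of them in replicate 1 and 23.2% in replicate 2 had under 50% of their level in such transcripts. For Elk4, transcript Elk4-207, also annotated for nonsense-mediated decay, took 65.3% in replicate 1 and was at 0 in replicate 2, where the coding transcript Elk4-202 took the whole level (0.75 and 1.63 TPM in the libraries). Elk1 was assigned wholly to the coding transcript Elk1-201 in both libraries. Mkl2 was assigned to Mrtfb-204 in replicate 1, which starts 101940 bases inside the gene, and to Mrtfb-201 in replicate 2. Among the 6577 genes with several transcripts and a mean of at least 1 TPM, 62.3% had the same leading transcript in both libraries. Of the 4 members in that class, Mkl1, Elk1 and Elk3 had the same one and Elk4 did not. Over coding transcripts alone, an alternative chosen after seeing the data, 4 of the 6 genes reached a mean of 1 TPM, with Elk3 at 0.495 TPM and Elk4 at 1.19 TPM.

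**Figure D2:**
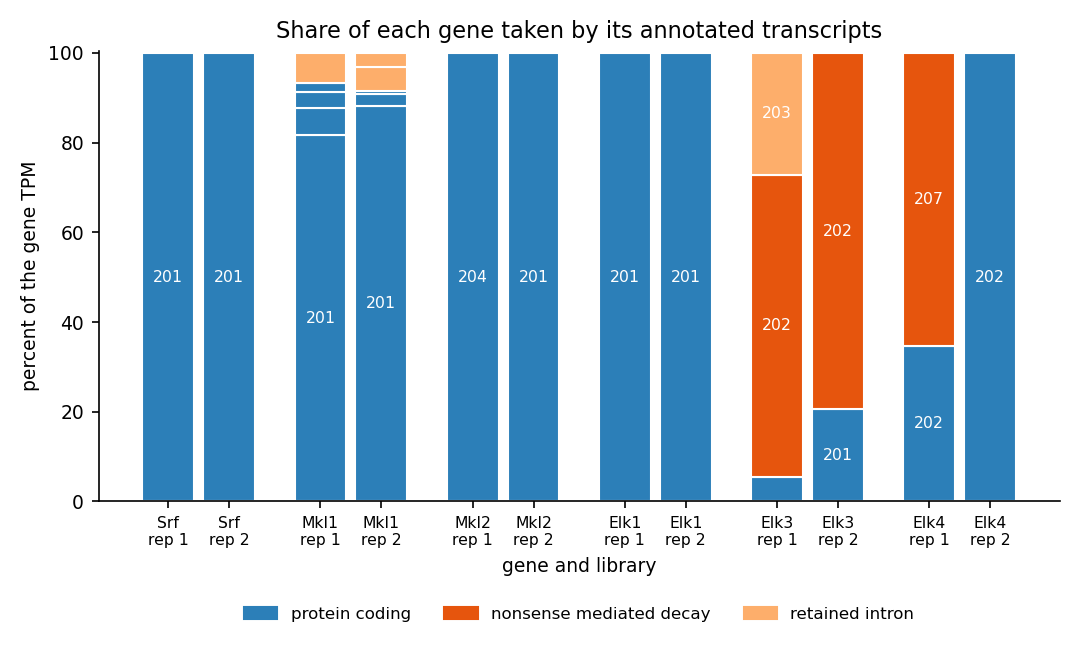
Percent of the TPM of each gene in each annotated transcript, by library, with transcripts that hold at least 10% numbered and coloured by their annotated type. Srf, Elk1 and Mkl2 were assigned wholly to coding transcripts and Mkl1 mostly to transcript 201, whereas Elk3 was mostly in transcript 202, annotated for nonsense-mediated decay.

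Between the libraries, Mkl1 and Elk1 were over 2-fold higher in replicate 2 and Elk3 was over 2-fold lower. These are ratios of counts, replicate 2 over replicate 1, scaled by the trimmed mean of M-values (TMM), with an exact 95% interval that covers counting error only. The ratio was 2.84 for Elk1 (interval 2.45 to 3.29), 2.29 for Mkl1 (2.19 to 2.41) and 0.433 for Elk3 (0.197 to 0.828). Srf had a ratio of 1.64 (1.53 to 1.75) and Elk4 of 1.39 (0.727 to 2.42). Mkl2 had a ratio of 0.334 (0.0401 to 1.23), and its interval spans equal levels. Of the 6 genes, 5 passed the filter of a mean of 5 CPM, and of these 2 (Mkl1 and Elk1) were at least 2-fold higher and 1 (Elk3) was lower by that much. Over the 7490 genes past the same filter, 19.0% were higher by this factor and 28.0% were lower by it, so changes of this size were common between the libraries. The ratios of Mkl1 and Elk1 lay above those of 86.2% and 91.6% of these genes, and that of Elk3 above 24.4%. With 1 group and 2 libraries there is no test of these differences. In a bulk sample, fewer cells of a type and less RNA per cell cannot be told apart.

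The direction for Srf and Elk4 depended on the scale. Over all 7490 genes the ratio rose with the GC content of the longest transcript of each gene. The trend went from -0.56 (log2) at 45% GC to 0.884 at 65%. This GC content was taken from GENCODE M21, where it was 64.4% for Srf. Srf-201 had 4093 bases in the authors' quantification and 2616 in M21, so the GC content of the quantified transcript may differ. With the GC trend removed, the Srf ratio was 0.849, that of Mkl1 1.65, that of Elk3 0.559 and that of Elk1 3.21. The ratio of TPM for Elk4 was 0.755. Elk1 stayed above 2 and Elk3 below 0.6 under each of the 5 scalings tried, which were TMM, total counts, DESeq2 size factors, TMM with the GC trend removed and the ratio of TPM. Total counts gave 1.69 for Mkl1. The median log2 ratio of all genes was -0.09 under TMM and -0.53 under total counts. Relative to that median, the log2 ratio under both was 0.80 for Srf, 1.29 for Mkl1, 1.60 for Elk1 and -1.11 for Elk3. These values are equal by construction, because the scalings differ by a factor common to all genes. Total counts gave 9.47% of genes at least 2-fold higher and 37.8% lower, beside the 19.0% and 28.0% under TMM.

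**Figure D3:**
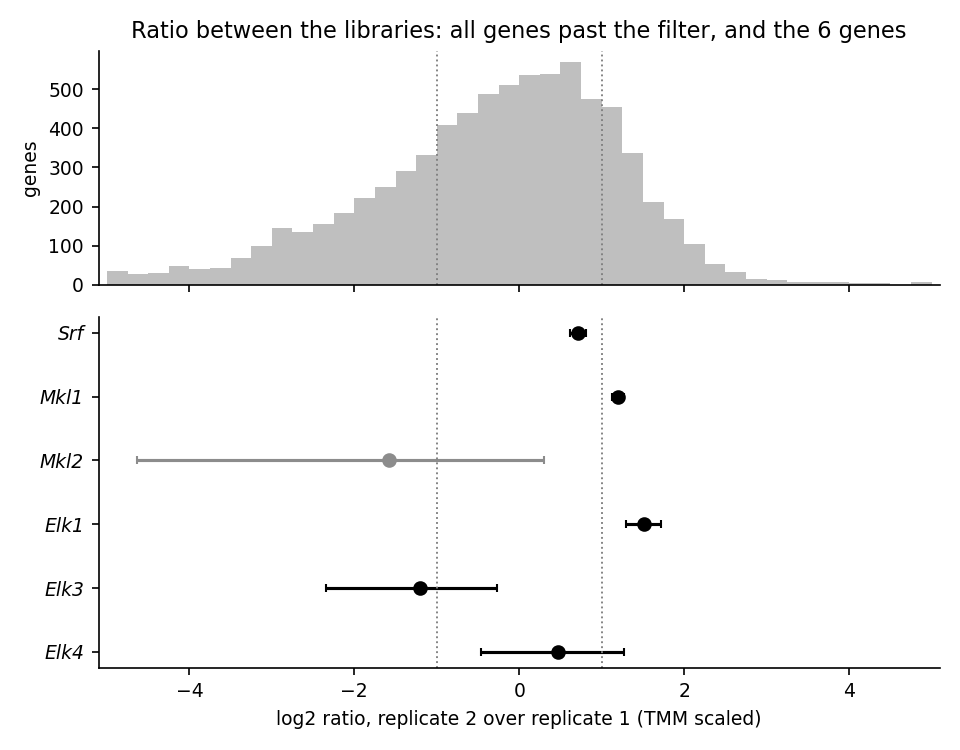
Above, the number of genes past the filter by their log2 ratio of replicate 2 over replicate 1, with ratios beyond 5 in either direction drawn at the edge; below, the same ratio for each of the 6 genes with its exact 95% counting interval (Mkl2, in grey, was below the filter) and dotted lines at 2-fold. Elk1 and Mkl1 lie to the right of the upper line and Elk3 to the left of the lower one, within the range of the other genes.

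Each gene that overlaps a member on the genome was given fewer reads than that member in both libraries. Elk1 shares 8887 bases of its span with Uxt on the same strand, which had 511 fragments in replicate 1 and 2 in replicate 2. Elk3 shares 19658 bases with Cdk17 on the opposite strand, at 167 fragments and 1 fragment. Sgsm3, at 300 and 6.56 fragments, overlaps Mkl1 by 10 bases, and the genes that overlap Srf, Mkl2 and Elk4 were at 0 counts. Whether the counting used strand is not given in the sources used here, and strand would not separate Elk1 from Uxt. Reads in the shared stretches thus cannot be assigned to a single gene with certainty.

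The actin regulators upstream of the MKL proteins ranged from 0 to the most abundant transcripts named here. Of the 24 listed genes, 19 had a mean of at least 1 TPM, beside 42.5% of all protein-coding genes. The median over all 24 was 22.0 and 23.6 TPM in replicates 1 and 2. Pfn1 (profilin, which loads actin monomers onto filaments) was the highest at 9225 and 14993 TPM, followed by Cfl1 (cofilin, which severs filaments) at 2181 and 3654 TPM. Tmsb4x (thymosin beta-4, which binds actin monomers) stood at 797 and 94.3 TPM, a count ratio of 0.142 (0.117 to 0.170). These abundant actin-binding genes thus did not move together between the libraries. Of the 19 genes past the filter, 4 were at least 2-fold higher in replicate 2 and 4 lower, beside 19.0% and 28.0% of all genes, with a median log2 ratio of 0.40 against -0.09 for all genes. The number higher was 1 with total counts and 7 with the GC trend removed. Rhoc, a small GTPase, had the largest ratio, 2.71 (2.43 to 3.02), at 100.1 and 238 TPM. The others that were higher were the LIM kinases Limk1 and Limk2, which phosphorylate cofilin, and Diaph1, a formin that elongates filaments. Kpna2, an importin, had the smallest ratio, 0.0441 (0.00533 to 0.159), from 1138 fragments and 2 fragments. Abra, a muscle activator of SRF, was at 0 counts in both libraries.

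The Ras and ERK branch upstream of the ternary complex factors was led by Map2k2, Mapk3 and Ksr1. Of its 22 listed genes, 19 had a mean of at least 1 TPM, beside 42.5% of all protein-coding genes. The median of the list was 20.8 TPM in the first library and 7.69 TPM in the second. Of the 19 past the filter, 1 was at least 2-fold higher and 6 were lower by that factor. Their median log2 ratio was -0.40 against -0.09 for all genes. Over all genes 19.0% were higher and 28.0% lower, so the share that was lower is close to the background and the share that was higher is under it. With total counts 9 were lower, beside 37.8% of all genes, and with the GC trend removed 5 were, beside 26.0%. Map2k2 (MEK2, a kinase that activates ERK) was both the highest and the one that was higher, at 356 and 1155 TPM with a ratio of 3.67 (3.53 to 3.81). Mapk3 (ERK1) stood at 205 and 298 TPM. The scaffold Ksr1 stood at 54.8 and 204 TPM, though its count ratio was only 1.60 (1.45 to 1.75). Those lower included the adaptor Grb2, the exchange factor Sos2, the kinases Araf and Map2k1, and the ERK phosphatase Dusp6. Sos2 had the smallest ratio, 0.0556 (0.00140 to 0.311), from 451 fragments and 1 fragment. Braf had the lowest mean of the branch, at 0.80 and 0.56 TPM.

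**Figure D4:**
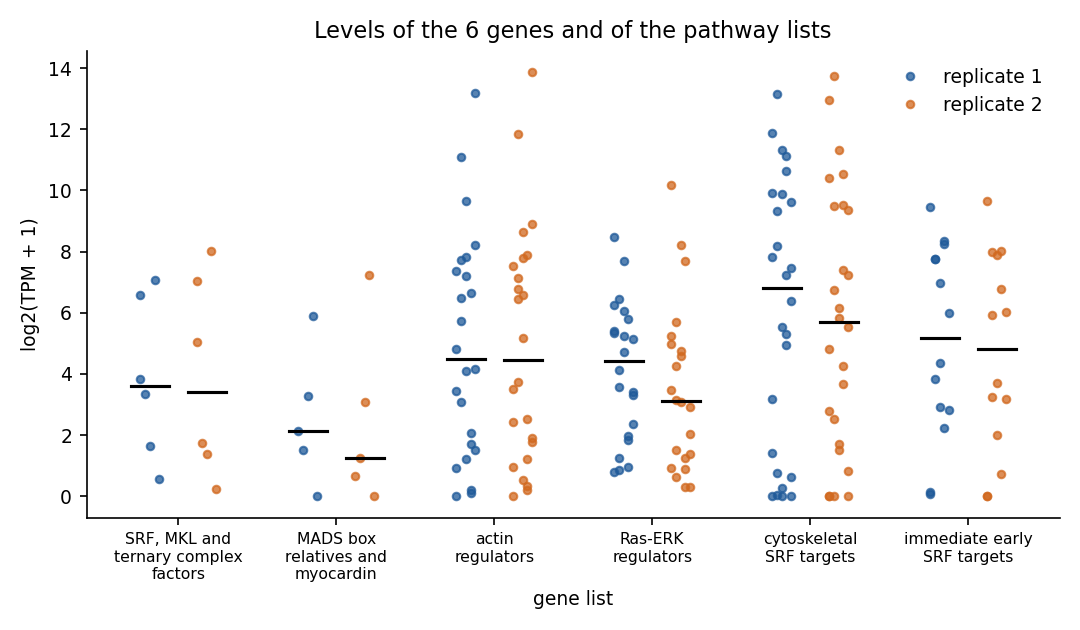
Each point is 1 gene of the list named below it, as log2(TPM + 1) in replicate 1 (blue) and replicate 2 (orange), with a black line at the median. The cytoskeletal SRF targets reach the highest values besides the actin regulators, and each list spans from near 0 to its highest gene.

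Cytoskeletal genes known as SRF targets included some of the most abundant transcripts of these cells. Of 26 listed, 20 had a mean of at least 1 TPM, beside 42.5% of all protein-coding genes. The median of the list was 116 and 50.6 TPM in replicates 1 and 2. Actb (cytoplasmic beta-actin) stood at 9089 and 13627 TPM, Zyx (zyxin, of focal adhesions) at 3736 and 7983 TPM, and Actg1 (cytoplasmic gamma-actin) at 2529 and 2544 TPM. The count ratio of Actb was 0.859 (0.843 to 0.875), so its direction differed between TPM and scaled counts. The smooth muscle targets Acta2 and Cnn1 were at 0 counts in both libraries. Tagln and Tpm2, also known from smooth muscle, were at 0 and 0.02 TPM in replicate 1 and at 1.87 and 4.81 TPM in replicate 2, from 5 and 11 fragments there. Of the 18 past the filter, 1 was at least 2-fold higher in replicate 2 and 3 were lower, beside 19.0% and 28.0% of all genes, with a median log2 ratio of -0.13. These numbers became 0 and 5 when scaled by total counts. The higher one was Zyx, with a ratio of 2.52 (2.49 to 2.55). Tpm4, the main tropomyosin of the list in replicate 1, had the smallest ratio, 0.152 (0.133 to 0.174), at 950.0 and 69.6 TPM. Tpm1 and Fhl1 were the other genes at least 2-fold lower.

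Immediate early SRF targets were detected in the megakaryocytes in 12 of 14 cases at a mean of at least 1 TPM, beside 42.5% of all protein-coding genes. Their medians were 41.5 and 35.8 TPM in replicates 1 and 2. By the mean of the libraries, Junb (an AP-1 subunit) was the highest at 704 and 806 TPM, followed by Zfp36 (a protein that promotes decay of AU-rich mRNA) at 305 and 258 TPM and Mcl1 (a survival factor of the BCL2 family) at 214 and 253 TPM. Of the 11 past the filter, 1 was at least 2-fold higher in replicate 2 and 2 were lower, beside 19.0% and 28.0% of all genes, with a median log2 ratio of -0.01. The higher one was the zinc finger factor Egr1, with a ratio of 2.40 (2.29 to 2.51) at 125 and 236 TPM. It was not past 2-fold with total counts or with the GC trend removed, which both gave 0 higher genes in the list. Fos, the AP-1 subunit classically induced through the ternary complex, had the smallest ratio, 0.208 (0.159 to 0.267), at 215 and 59.6 TPM. Ier2 was the other lower gene. Arc, an immediate early gene of neurons, had the lowest mean, with 6 fragments in replicate 1 and 0 in replicate 2. The 2 libraries thus ordered Fos and Egr1 differently, with Fos above Egr1 in replicate 1 and below it in replicate 2.

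CArG boxes were more frequent in the promoter windows of these targets than in the table as a whole. A box was found in 7 of the 23 cytoskeletal targets that matched the promoter table (30.4%) and in 2 of the 10 matched immediate early targets (20.0%), against 1.81% of all 27025 genes. The target lists were made from genes already known to respond to SRF, so this is a description of the lists. The sequences below show the boxes of Vcl, Cnn2 and Filip1l, which have the same letters, and that of Zfp36, which has the letters of the Srf box nearer to its start (GRCm38.p6, the box in capitals).
Vcl, chr14:20929161-20929190, plus strand: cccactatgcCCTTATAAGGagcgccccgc
Cnn2, chr10:79988534-79988563, plus strand: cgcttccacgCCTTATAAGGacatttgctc
Filip1l, chr16:57549170-57549199, plus strand: atgccgcgcgCCTTATAAGGctgagcggtg
Zfp36, chr7:28379267-28379296, minus strand: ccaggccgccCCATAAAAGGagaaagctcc
The genes that carry the same box were at very different levels: Cnn2, a calponin, stood at 973 and 1351 TPM, Vcl (vinculin) at 29.6 and 18.3 TPM, and Filip1l at 1.65 TPM and 0. The other targets with a box were Actg1, Myl9, Fhl1, Fhl2 and Egr2. The median level of the 7 cytoskeletal targets with a box was 38.6 and 18.3 TPM in replicates 1 and 2. That of the 16 with no exact box in their windows was 188 and 62.7 TPM. Boxes outside the windows were not searched for. Actb, Tagln and Ctgf were missing from the promoter table and stand in neither set. Egr1, Egr3, Ier2 and Arc of the immediate early targets were also missing from it.

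**Figure D5:**
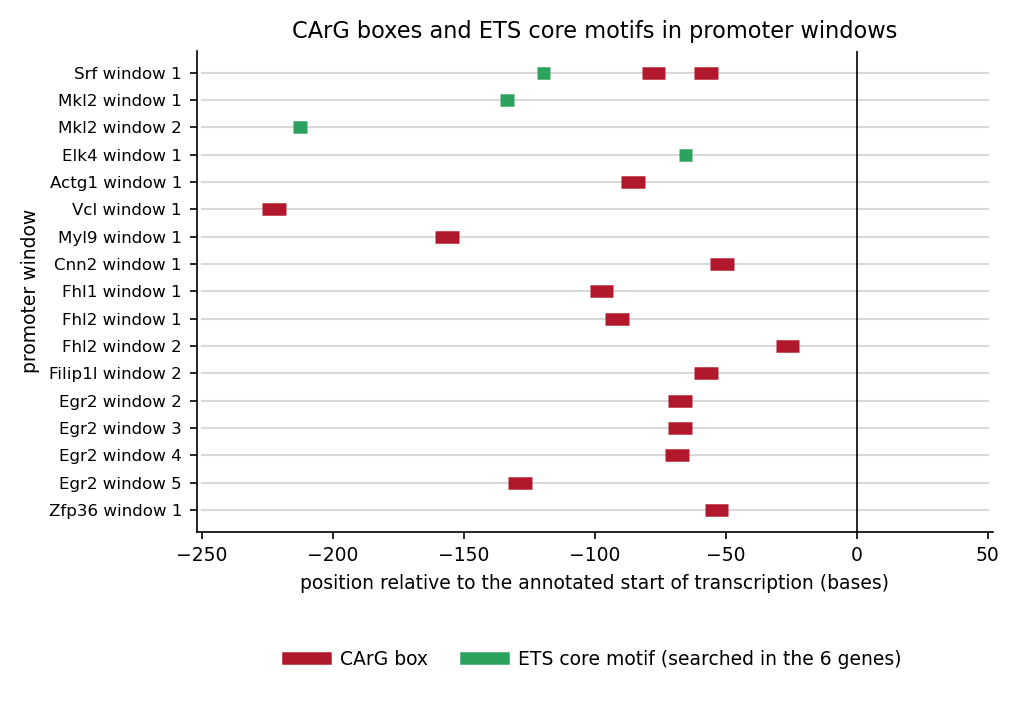
Position of each CArG box (red) and of each ETS core motif (green, drawn for the 6 genes only) relative to the annotated start of transcription, in bases, 1 line per promoter window that holds a motif. All lie upstream of the start, and Srf is the only window drawn with more than 1 CArG box.

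Marker genes placed these levels in a megakaryocyte preparation with some RNA of other blood cells. All 9 megakaryocyte markers had a mean of at least 1 TPM, beside 42.5% of all protein-coding genes. The sum of these markers was 16304 and 22653 TPM in replicates 1 and 2, with the platelet integrin subunit Itga2b at 4430 and 3388 TPM. Of the 8 macrophage markers, 7 had a mean of at least 1 TPM, and their sum was 875 and 229 TPM. All 7 macrophage markers past the filter and all 5 such granulocyte markers were at least 2-fold lower in replicate 2, beside 28.0% of all genes. Of these, Ctsg and S100a9 were at 0 counts in replicate 2, so their ratios are bounds. Elk3 was lower too, as was 1 of the 9 megakaryocyte markers, Pf4, at 2932 and 633 TPM. Of those 9 markers, 3 were at least 2-fold higher. The granulocyte sum was 802 and 138 TPM, with Ly6g at 0 counts in both libraries. The erythroid sum was 5363 and 13382 TPM, most of it from Hba-a1 (an alpha globin) at 4480 and 12715 TPM. The part of these other cells in the levels of the 6 genes was not tested. Smooth muscle and stromal markers, of which Myh11, Lmod1, Actg2 and Dcn were at 0, summed to 2.31 and 1.52 TPM. Of the 6 endothelial markers, only 2 had a mean of at least 1 TPM. The list summed to 102 and 31.8 TPM, of which Egfl7 gave 87.0 and 20.3 TPM, with Robo4 at 0. Hepatocyte markers summed to 0.29 and 0 TPM, with Alb, Ttr, Apoa2 and Serpina1a at 0 in both.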

How the data were processed

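The 2 megakaryocyte libraries form 1 group, replicates 1 and 2 per the labels, so no condition was compared. Expected counts, TPM and isoform percent are the authors' deposited values per gene and transcript, as maximum likelihood or posterior mean estimates per the file headers. The deposited file lists name mm10 and GENCODE M4; aligner and quantifier: not given in the sources used here. Symbols, gene spans and transcript types came from GENCODE M21, matching 98.0% of Ensembl genes. Rows of no Ensembl gene (15 counts and 0 counts in the libraries) were left out.

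Levels are mean ± SD (n = 2). Ratios used expected counts rounded to whole numbers, scaled by edgeR 4.0.16 TMM factors (1.16 and 0.859), with exact Clopper-Pearson 95% intervals, which cover counting error only since reads are not independent molecules. A library at 0 was set to 3 counts. DESeq2 1.42.0 gave alternative size factors, statsmodels 0.14.6 the GC trend. The ratio calculation was tested on simulated data.

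The 6 genes and all lists were chosen with earlier results of these data known. Named by rule were, per pathway list, the 3 highest genes, the lowest and those with the largest and smallest ratio, per member the 2 nearest protein-coding genes, targets with a CArG box, markers at 0 and leading markers, and transcripts with at least 10% of a member. Tagln, Tpm2, Ctgf, Egr3, Mrtfa-202, Mrtfa-203, Mrtfa-204, Mrtfa-209 and the other genes counted as at least 2-fold apart were named after their values were seen.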

Additional observations from a re-analysis of the deposited data

How the results depend on the processing

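No paired analysis was possible because there is 1 group. The number of the 6 genes at a mean of at least 1 TPM was 5 to 5 with either library alone, and that of the 91 pathway genes was 71 to 74. At least 2-fold higher in replicate 2 were 2 of the 6 genes, but 1 with total counts, 1 with the GC trend removed and 1 with the ratio of TPM, where Mkl1 fell below 2-fold. At least 2-fold lower was 1, but 0 with the GC trend removed. Of the pathway genes 8 were higher, but 2 with total counts and 13 with no filter. The ratio of TPM was not tried for the pathway genes. Allowing the CArG box 1 mismatch gave 2 of the 6 genes, 6 immediate early targets and 3050 genes of the whole table, beside 1, 2 and 488. In all, 24 recomputed counts stayed close to the main ones and these 9 moved; the cause was not tested. With the authors' posterior mean TPM, Elk4 (9.33 TPM) stood above Elk3 (2.88 TPM) in replicate 2. Most of that Elk4 value lay in short transcripts that were given 0 fragments. The 2275922 fragments of replicate 2 limit what can be said of Elk3, Elk4 and Mkl2 there.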
